A study of Homo sapiens with 12 samples.

Results

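The early response of OCI-Ly7 cells to a PRMT5 guide was read as the difference between 2 libraries taken after 3 days of doxycycline and 2 libraries taken on day 0. OCI-Ly7 is an established human diffuse large B cell lymphoma line of the germinal centre B cell type. Its cells carried a guide RNA against PRMT5 that is switched on by doxycycline, and this guide was also present, not induced, in the day 0 cells. Day 3 cells had received 20 ng/ml doxycycline for 3 days and day 0 cells none, so the effects of doxycycline and of the guide cannot be told apart; no group here carried a guide without a target. The comparison used 4 of the 12 libraries of the series. The other libraries were 2 of OCI-Ly7 after 6 days and 6 of TMD8, an activated B cell type lymphoma line with the same guide, at days 0, 3 and 6. The labels do not say whether the cells were a pool or 1 clone, nor whether the 2 libraries of a day came from separate cultures, so p-values measure the spread between these samples, which may be technical. One label names other days of treatment than the titles, the sample descriptions and the design text; these last were followed.

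Of 25369 rows of the OCI-Ly7 table, 11016 genes had a mean of at least 1 FPKM (fragments per kilobase of transcript, scaled to the fragments of the library) over the 6 OCI-Ly7 libraries, and these were tested. A change is given as the day 3 mean minus the day 0 mean on the log2(FPKM + 1) scale, which understates the change of low genes, and a gene passed when its adjusted p was under 0.05. The median over all genes tested was -0.12 on FPKM as deposited and -0.0077 once the libraries were scaled by median ratios (each divided by the median, over genes, of its level relative to the geometric mean of the line). Changes were therefore read against that shift. A single value is the change on FPKM as deposited, and the scaled change is given for some genes only. The 2 scales can differ where 1 value is given, as for BTK (-0.29 as deposited, -0.16 scaled) and PMAIP1 (0.14 and 0.27). The 9 B lineage markers all had a mean of at least 1 FPKM, with summed levels of 1140 to 1350 FPKM on day 0 and 849 to 944 on day 3. None of 10 T and NK cell markers and none of 10 myeloid markers did, with summed levels under 1 FPKM (0.402 to 0.818 and 0.127 to 0.178). Of 10 stromal and epithelial markers 3 reached a mean of 1 FPKM, with summed levels of 13.1 to 13.8 FPKM on day 0 and 11.7 to 11.8 on day 3. The sources used here do not state the absolute depth; relative to the first day 0 library, the depth read from small values was 1.3 for the other day 0 library and 0.908 and 0.883 on day 3. The second day 3 library stood apart from the first. The 45S pre-ribosomal RNA row took 27.4% of its fragments, against 19.1% in the first day 3 library and 14.9% and 13.9% on day 0.

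PRMT5 is an arginine methyltransferase that places symmetric dimethyl marks on histones and on many other proteins, and it works in a complex with WDR77. Among its best known substrates are Sm proteins of the spliceosome, which are methylated on their way into the particles that splice messenger RNA, and loss of PRMT5 is known to disturb splicing. In B cell lymphoma PRMT5 has been studied as a factor of proliferation. A guide acts on the gene, so transcript levels at an early day report the loss of protein only indirectly.

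Few transcripts moved beyond the replicate spread on day 3. In limma with Benjamini-Hochberg adjustment, 16 of the 11016 genes passed, or 0.145%, with 8 higher and 8 lower (0.0726% each). After median-ratio scaling 13 passed (0.118%; 7 higher, 0.0635%, and 6 lower, 0.0545%), all among the 16; PRKAG1, SLC25A17 and ZNRD1 did not. Without adjustment, 755 genes had a p under 0.05 (6.85%), 84 higher (0.763%) and 671 lower (6.09%), and 543 (4.93%) after scaling. The genes that passed had small gaps between replicates: in all 16 the change was larger than the gap between the 2 libraries of day 0 and of day 3. The test sets the change against this spread, so it selects such genes. Most calls still did not hold in every fit that left out a library, and such fits also hold fewer libraries. Changes such as those of JADE1 (1.062 to 1.283 over 16 alternative fits) and SLC25A17 (-1.367 to -1.085) kept their size. When each of the 6 libraries was left out in turn, HIGD1A, MSL2 and TXNDC5 passed in all 6 fits, USF1 in 5, GPATCH4, MRPL42, PCDHGA8 and SCARNA16 in 4, PRKAG1 in 3, SLC25A11 and ZNF106 in 2, and JADE1, NFS1, SLC25A17 and ZNRD1 in none. The largest adjusted p of those limma fits was 0.269, for SLC25A11. Elsewhere the gaps between replicates reached the size of the changes. Between the 2 libraries of 1 day, 213 genes on day 0 and 317 genes on day 3 were at least 2-fold apart on this scale, more than the 153 genes whose day means were. A mean of 2 libraries varies less than 1 library, so these counts are not like for like.

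**Figure D1:**
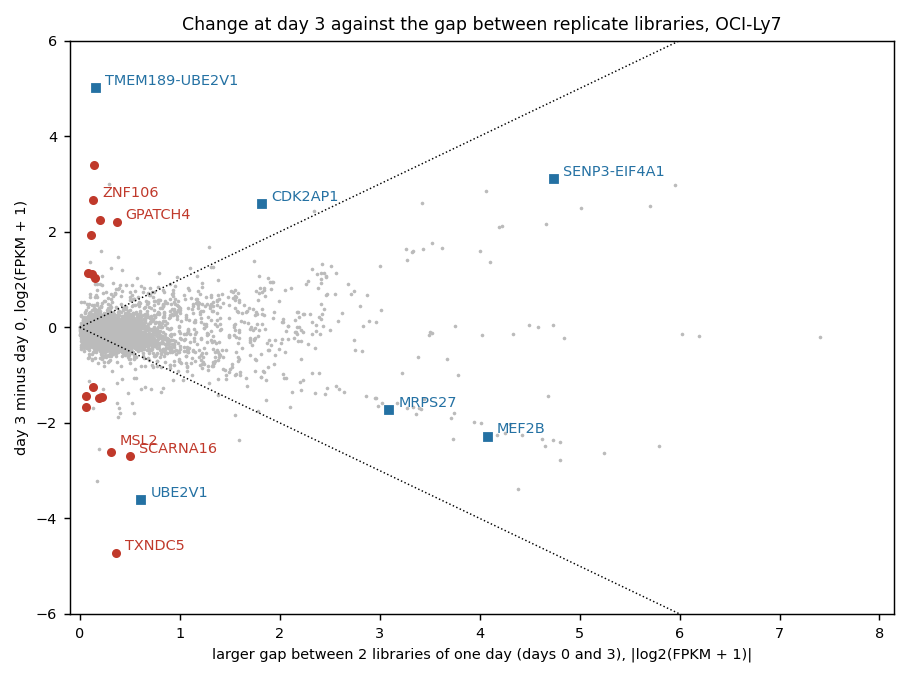
Each point is 1 of 11016 genes in OCI-Ly7; the vertical axis is the change from day 0 to day 3 and the horizontal axis the larger of the gaps between the 2 libraries of day 0 and of day 3, both on the log2(FPKM + 1) scale, and dotted lines mark a change equal to the gap. Red circles are the 16 genes past the threshold, all to the left of the dotted lines, and blue squares are 6 of the genes with large changes that did not pass.

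The transcripts that rose include genes of mitochondria, transcription and RNA metabolism. HIGD1A, a protein of the inner mitochondrial membrane that associates with the respiratory chain, stood at 8.797 and 8.39 FPKM on day 0, 36.8 and 34.05 on day 3, and 5.695 and 5.71 on day 6. Its rise was 4.12-fold (1.92, SE 0.092, limma adjusted p = 0.00381), and the day 6 libraries were below the day 0 libraries. In TMD8 the day 0 libraries of HIGD1A were at 52.6 and 17.7 FPKM, so this row can differ between libraries of 1 day. NFS1, the cysteine desulfurase that supplies sulfur for iron-sulfur clusters, was at 6.47 and 7.31 FPKM on day 0, 15.3 and 15.2 on day 3, and 4.19 and 4.21 on day 6, a 2.21-fold rise on day 3 (limma adjusted p = 0.0416) with both day 6 libraries below day 0.

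GPATCH4, a protein with a G-patch domain found in RNA-binding factors, had 3.59 and 4.92 FPKM on day 0, 24.3 and 21.5 on day 3, and 14.2 and 12.8 on day 6. The groups of day 0 and day 3 were 5.38-fold apart and the day 6 libraries lay between them. ZNRD1, a subunit of RNA polymerase I, stood at 2.88 and 3.07 FPKM on day 0, 7.502 and 7.98 on day 3, and 7.19 and 6.16 on day 6, a 2.603-fold rise that stayed on day 6 but did not pass after scaling (limma adjusted p = 0.053). JADE1, a subunit of the HBO1 histone acetyltransferase complex, was at 4.73 and 4.86 FPKM on day 0, 12.1 and 11.1 on day 3, and 5.54 and 5.78 on day 6. Its day 3 libraries were 2.42-fold above day 0 (limma adjusted p = 0.026) and the day 6 libraries were again close to day 0. ZNF106, a zinc finger protein, showed the same course on a larger scale: it stood at 2.21 and 2.36 FPKM on day 0, 20.8 and 18.8 on day 3, and 1.55 and 3.001 on day 6, an 8.67-fold rise on day 3 alone.

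PCDHGA8, a member of the protocadherin gamma cluster of cell adhesion genes, also rose, at 0.0564 and 0.0102 FPKM on day 0, 4.25 and 3.55 on day 3, and 0.0542 and 0.0721 on day 6. All genes of this cluster share their last exons and differ in the first, so a fragment from the shared end can be given to any of them. The sum over the 22 rows of the cluster was 6.86 and 7.64 FPKM on day 0, 6.01 and 5.11 on day 3 and 6.96 and 7.92 on day 6. The row that held most of this sum changed between libraries. PCDHGA1 held 5.52 FPKM in the first day 0 library, PCDHGC3 and PCDHGA10 held 3.59 and 3.00 in the second, and PCDHGA8 held 4.25 and 3.55 on day 3. At day 6 PCDHGC3 held 5.38 FPKM in the first library, and PCDHGB2 and PCDHGC3 held 3.02 and 2.97 in the second. The cluster as a whole was thus lower, not higher, in the day 3 libraries, and the rise of PCDHGA8 is uncertain as a change of that gene.

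The 8 transcripts that fell include a chaperone, a transcription factor, a chromatin subunit, a small nuclear guide RNA and 4 metabolic or mitochondrial genes. TXNDC5, a protein disulfide isomerase of the endoplasmic reticulum that helps secreted proteins fold, stood at 24.02 and 31.2 FPKM on day 0, 0 and 0.139 on day 3, and 0.175 and 0 on day 6. It had the largest fall among the genes tested, -4.73 on the log2 scale (SE 0.17, limma adjusted p = 0.00158), and it did not come back on day 6. A read-through row, BLOC1S5-TXNDC5, shares 60.6% of the exonic bases of TXNDC5 on the same strand in GENCODE v29. That row was listed at 0 in both day 0 libraries, stood at 1.68 and 1.501 FPKM on day 3, and at 1.12 and 20.2 on day 6. Summed over both rows, the locus held 24.02 and 31.2 FPKM on day 0, 1.68 and 1.64 on day 3, and 1.298 and 20.2 on day 6. At day 3 the read-through row therefore held little of the day 0 level, whereas in the second day 6 library it held most of it.

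MSL2, the E3 ubiquitin ligase subunit of the MSL histone acetyltransferase complex, stood at 14.1 and 14.2 FPKM on day 0, 1.75 and 1.22 on day 3, and 12.8 and 12.5 on day 6. The day 0 libraries agreed closely, the day 3 libraries were 9.54-fold lower (-2.62, SE 0.13, limma adjusted p = 0.00381), and day 6 was near day 0. USF1, a transcription factor of the basic helix-loop-helix family that binds E-box motifs, followed the same course. It was at 47.4 and 47.4 FPKM on day 0, 14.6 and 13.9 on day 3, and 40.2 and 40.4 on day 6, a 3.32-fold fall on day 3 (limma adjusted p = 0.00479). PRKAG1, the gamma subunit of the energy sensor AMPK, was at 29.01 and 33.3 FPKM on day 0, 10.04 and 10.96 on day 3, and 23.8 and 23.7 on day 6, with the day 3 libraries 2.97-fold below day 0 but no pass after scaling (limma adjusted p = 0.0522).

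MRPL42, a protein of the mitochondrial ribosome, stood at 31.3 and 32.7 FPKM on day 0, 11.1 and 11.1 on day 3, and 8.78 and 8.27 on day 6. Its 2.88-fold fall on day 3 (-1.45, SE 0.09, limma adjusted p = 0.00931) was as deep or deeper on day 6. SLC25A11, the carrier that exchanges oxoglutarate and malate across the inner mitochondrial membrane, was at 26.8 and 28.1 FPKM on day 0, 10.1 and 8.54 on day 3, and 6.53 and 5.12 on day 6. It too was lowest on day 6, after a 2.95-fold fall on day 3. SLC25A17, a carrier of the peroxisomal membrane from the same family, was at 16.1 and 17.7 FPKM on day 0, 6.28 and 6.69 on day 3, and 11.9 and 12.6 on day 6; its 2.61-fold fall did not pass after scaling (limma adjusted p = 0.067), and the day 6 libraries lay between those of days 0 and 3.

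SCARNA16 is a small RNA of Cajal bodies, where such RNAs guide the chemical modification of spliceosomal RNAs, and it was the only noncoding RNA among the 16. Its sequence is shown since it is the shortest transcript that passed, 187 bases as given in GENCODE v29, with the 3 bases in capitals that lie 3 bases before the 3′ end, where box H/ACA RNAs carry the trinucleotide ACA.
SCARNA16: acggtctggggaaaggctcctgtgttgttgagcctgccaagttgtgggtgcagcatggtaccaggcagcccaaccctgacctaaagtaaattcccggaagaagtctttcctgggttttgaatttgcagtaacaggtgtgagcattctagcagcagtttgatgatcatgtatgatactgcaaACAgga
It stood at 4.45 and 6.73 FPKM on day 0 and was listed at 0 in all 4 later libraries (-2.70 on the log2(FPKM + 1) scale, SE 0.19, limma adjusted p = 0.0151). All of its bases lie in exons of SNHG20, a noncoding host gene on the same strand. SNHG20 was listed at 0 in the first day 0 library and at 4.35 FPKM in the second, then at 5.47 and 4.20 on day 3 and 3.11 and 3.09 on day 6. MIR6516, which covers 41.2% of the same bases, stood at 16.1 and 20.5 FPKM on day 0 and at 13.8 and 28.8 on day 3. Reads of SCARNA16, SNHG20 and MIR6516 cannot be told apart where they overlap, so the fall of SCARNA16 is uncertain.

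**Figure D2:**
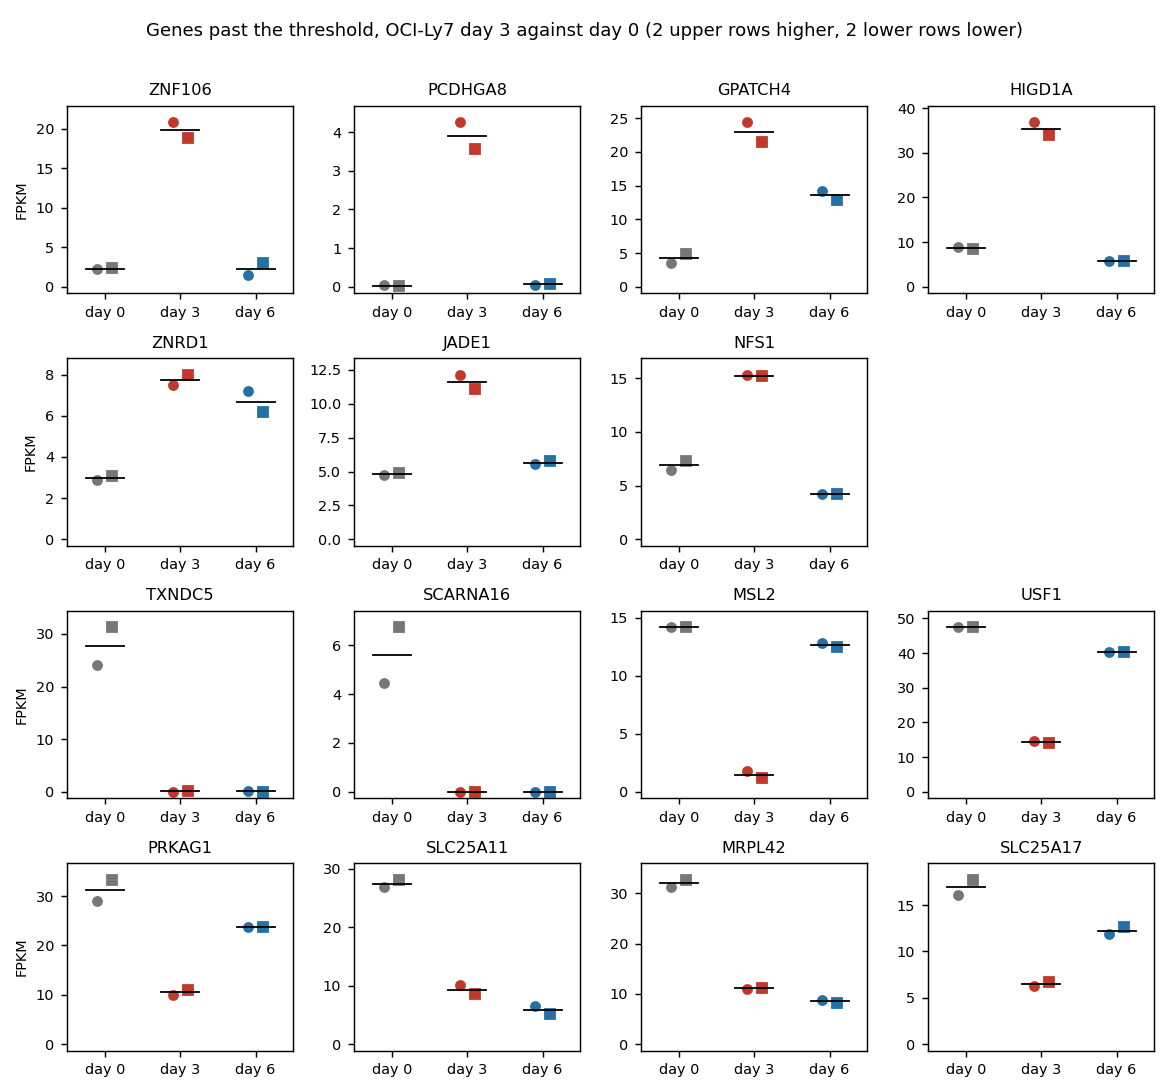
FPKM of 15 of the 16 genes past the threshold in the OCI-Ly7 libraries of days 0, 3 and 6, with circles for the first and squares for the second library of a day and bars for the mean of the 2. In each panel the 2 day 3 points lie wholly above (2 upper rows) or below (2 lower rows) the 2 day 0 points, and in panels such as HIGD1A, MSL2 and USF1 the day 6 mean lies nearer to day 0.

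The day 6 libraries of OCI-Ly7 show how long these levels lasted. For 9 of the 16 genes the day 6 mean was nearer to day 0 than to day 3 on the log2(FPKM + 1) scale: HIGD1A, JADE1, NFS1, PCDHGA8 and ZNF106 among those that rose, and MSL2, PRKAG1, SLC25A17 and USF1 among those that fell. For the other 7 it was nearer to day 3, among them GPATCH4, ZNRD1, MRPL42, SCARNA16, SLC25A11 and TXNDC5; on FPKM itself GPATCH4 lay slightly nearer to day 0. These are descriptions, since the days were set against each other in shared libraries. PRMT5 stood at 20.96 and 19.2 FPKM on day 6, below both day 3 libraries.

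Overlap with other gene models was looked up in GENCODE v29 for the genes that passed. An exon was shared with another row of the table in 7 of the 16 (43.8%), beside 34.6% of the 10726 genes tested that matched the annotation, and on the same strand in 3 (18.8%, beside 9.73%): PCDHGA8, SCARNA16 and TXNDC5. Among genes at least 2-fold apart between the 2 day 0 libraries the same-strand share was 38.2%. JADE1, NFS1 and SLC25A11 share under 10% with SCLT1, ROMO1 and RNF167 on the opposite strand. Whether counting used strand is not stated in the sources used here.

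Large changes that did not pass came mostly with rows that share exons with a neighbour or with replicates that disagreed. Among the other genes with a mean of at least 5 FPKM, 20 were taken with the largest changes whose groups did not overlap under both scalings, 10 in each direction. Not overlapping in this sense is common: 4.58% of all genes tested were higher and 19.6% lower in both day 3 libraries under both scalings. Of the 20, 8 belonged to a read-through row or one of its parts (40%), against 193 of 11016 genes tested (1.75%), 39 of the 213 genes at least 2-fold apart between the day 0 libraries (18.3%) and 1 of the 16 that passed. The 20 were drawn from genes that did not pass in the fit over 3 days. A large change that does not pass has a wide spread, so this choice favours rows whose libraries disagreed. The shares above describe the 20 genes and are not a test.

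UBE2V1, a partner of the ubiquitin-conjugating enzyme UBE2N, is the clearest of these pairs. UBE2V1 stood at 23.7 and 22.6 FPKM on day 0, 0.581 and 1.43 on day 3, and 19.6 and 1.04 on day 6, and the read-through row TMEM189-UBE2V1 at 0 and 0 FPKM on day 0, 32.9 and 29.3 on day 3, and 0 and 25.6 on day 6. One row was high where the other was low in all 6 libraries, and the sum of both rows was 23.7 and 22.6 FPKM on day 0, 33.5 and 30.7 on day 3 and 19.7 and 26.6 on day 6. The 2 libraries of day 6 disagreed on the row, which enters the spread; with days 0 and 3 alone TMEM189-UBE2V1 passed (5.001, limma adjusted p = 0.001646) and UBE2V1 passed (-3.62, limma adjusted p = 0.0161).

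MEF2B, a transcription factor of germinal centre B cells that is mutated in lymphoma, stood at 60.3 and 57.9 FPKM on day 0, 49.5 and 1.98 on day 3, and 1.73 and 0.0835 on day 6. Its read-through row MEF2BNB-MEF2B stood at 2.69 and 0.189 FPKM on day 0, 4.01 and 24.5 on day 3, and 52.5 and 32.1 on day 6. The 2 day 3 libraries thus disagreed: the first kept MEF2B at its day 0 level and the second moved to the read-through row, with sums of 63.01 and 58.1 FPKM on day 0 and 53.5 and 26.4 on day 3. The protease gene SENP3 and the translation initiation helicase EIF4A1 share another row, SENP3-EIF4A1. SENP3 stood at 34.96 and 36.1 FPKM on day 0, 0 and 27.02 on day 3, and 24.2 and 0 on day 6, EIF4A1 at 540.2 and 591 FPKM on day 0, 369.8 and 427 on day 3, and 38.97 and 0 on day 6 and the read-through row at 0.303 and 0.327 FPKM on day 0, 57.2 and 1.18 on day 3, and 128 and 142 on day 6. The sum of EIF4A1 and the read-through row was 541 and 591 FPKM on day 0, 427 and 428 on day 3, and 167 and 142 on day 6. NME1-NME2, the read-through row of a pair of nucleoside diphosphate kinase genes, stood at 63.2 and 34.5 FPKM on day 0, 19.9 and 0 on day 3, and 29.4 and 0 on day 6. C18orf32, which shares a row with the ribosomal protein gene RPL17, was at 21.2 and 8.32 FPKM on day 0, 71.2 and 28.5 on day 3, and 69.01 and 12.1 on day 6. The mitochondrial ribosomal protein gene MRPS24, picked as an example after its values were seen, shows the same exchange between replicates of 1 day. It was listed at 0 in the first and at 72.4 FPKM in the second day 0 library, where URGCP-MRPS24 had 63.9 and 0. Whether these exchanges reflect other transcripts or the assignment of fragments between overlapping models was not tested.

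**Figure D3:**
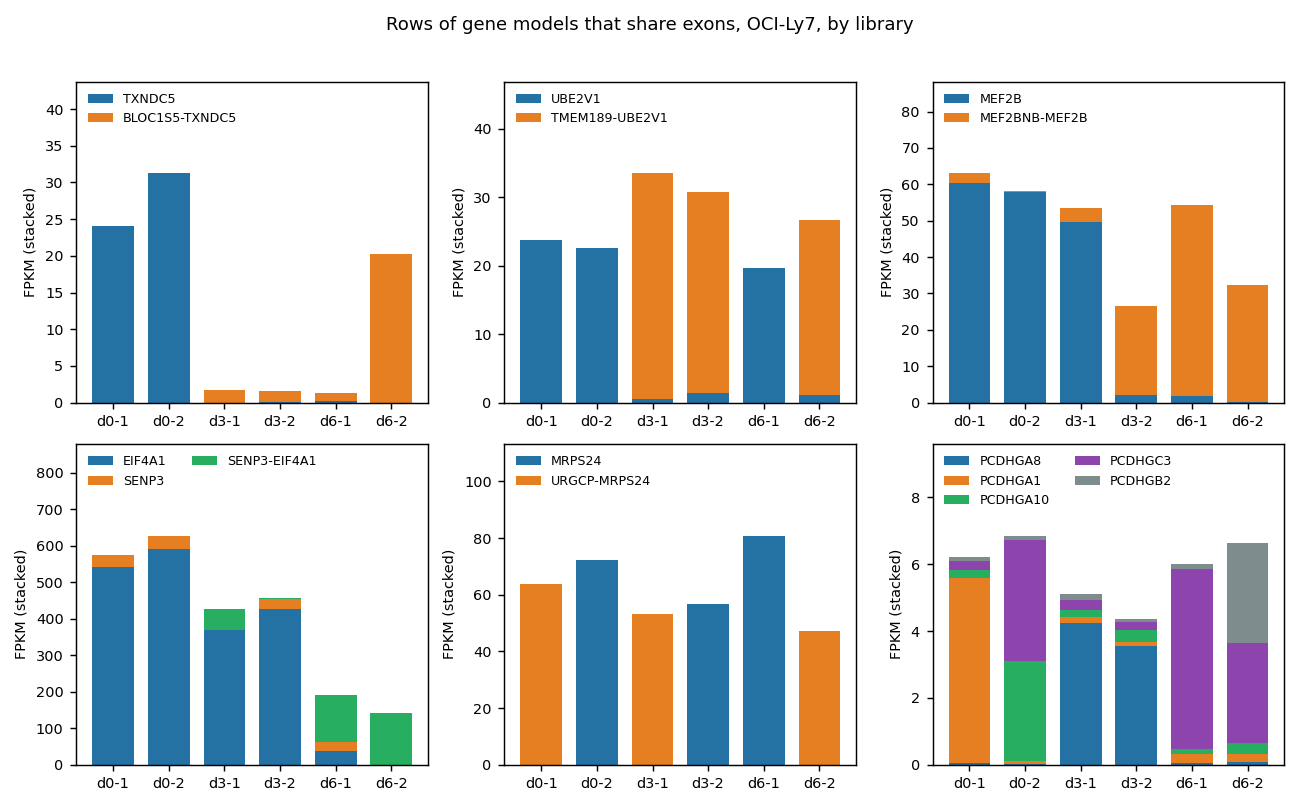
Stacked FPKM of rows whose gene models share exons, in 6 panels, for each OCI-Ly7 library (d0, d3 and d6 for the day, 1 and 2 for the library). The colour that fills a bar changes between libraries, as for UBE2V1 with TMEM189-UBE2V1 and for the protocadherin gamma rows, where the height of the stack moves less. For TXNDC5 the stack itself is low in both day 3 libraries. It is also lower for MEF2B in the second day 3 library, and for EIF4A1 with SENP3 and SENP3-EIF4A1 on days 3 and 6.

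Outside the read-through rows, 5 genes of the 20 had 2 day 3 libraries that were close to each other and well apart from day 0. WNK1, a kinase that controls chloride transport, was nearest to the threshold, at 4.49 and 3.42 FPKM on day 0, 11.1 and 10.3 on day 3, and 4.08 and 4.47 on day 6 (1.25, SE 0.13, limma adjusted p = 0.0725). DDTL, a homologue of D-dopachrome tautomerase, was at 9.63 and 14.5 FPKM on day 0, 2.25 and 3.25 on day 3, and 7.27 and 8.34 on day 6 (-1.79, limma adjusted p = 0.144). PPP1R12A, the targeting subunit of myosin phosphatase, was at 3.74 and 4.49 FPKM on day 0, 14.9 and 14.2 on day 3, and 7.24 and 15.7 on day 6. With days 0 and 3 alone it passed (1.61, limma adjusted p = 0.0338). LSM4, a subunit of the LSm ring that binds U6 small nuclear RNA, stood at 39.8 and 42.1 FPKM on day 0, 6.69 and 5.71 on day 3, and 37.2 and 3.88 on day 6. Its day 3 libraries were 6.61-fold below day 0 (-2.55, limma adjusted p = 0.618) and its 2 day 6 libraries were far apart; with days 0 and 3 alone it passed (limma adjusted p = 0.00896). CDK2AP1, an inhibitor of the cell cycle kinase CDK2, was at 7.22 and 28.2 FPKM on day 0, 98.1 and 84.7 on day 3, and 80.1 and 73.2 on day 6; its 2 day 0 libraries were themselves far apart.

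The other 7 genes of the 20 had a day 0 or day 3 library out of step with its replicate, or a level that differed between the 2 day 3 libraries. The motor protein gene KIFC1 was listed at 0 in the first day 3 library and at 12.3 in the second, against 16.7 and 18.4 on day 0. CHTF8, a factor of sister chromatid cohesion, was at 34.4 and 36.9 FPKM on day 0 and 33.3 and 0.796 on day 3, so the first day 3 library was at the day 0 level. CLINT1, a vesicle coat adaptor, was at 57.1 and 15.9 FPKM on day 0 and 8.46 and 8.23 on day 3, and MRPS27, of the mitochondrial ribosome, at 5.47 and 54.4 FPKM on day 0 and 5.07 and 4.28 on day 3; in each a single day 0 library set most of the change. OVCA2, a hydrolase, was at 0 and 9.75 FPKM on day 0 and 15.1 and 23.6 on day 3. The Cajal body RNAs SCARNA13 and SCARNA21 were at 0.376 and 22.02 FPKM on day 0 and 29.5 and 54.1 on day 3, and at 5.72 and 5.55 FPKM on day 0 and 9.78 and 22.1 on day 3, in that order. Both were highest in the second day 3 library.

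PRMT5 and its partners were lower in level on day 3, but none passed the test. PRMT5 stood at 37.9 and 46.9 FPKM on day 0, a mean of 42.4 ± 6.35 (SD, n = 2), and at 29.3 and 32.1 on day 3, 30.7 ± 1.97 (SD, n = 2). Both day 3 libraries lay below both day 0 libraries, with a change of -0.45 (SE 0.13, limma adjusted p = 0.618) and -0.32 after scaling (limma adjusted p = 0.856). Leaving out each library in turn gave -0.60 to -0.30. The guide's own target thus had a smaller change on day 3 than the 16 genes that passed. On day 6 against day 0 PRMT5 passed in OCI-Ly7 (-1.04, limma adjusted p = 0.0345). In TMD8 PRMT5 changed by -0.58 on day 3 (limma adjusted p = 0.0195), or -0.28 scaled, beside a median of -0.26 as deposited there. The day 3 change of PRMT5 did not differ detectably between the lines (0.13, limma adjusted p = 0.73). WDR77, its obligate partner, was at 42.7 and 41.4 FPKM on day 0 and 36.3 and 32.7 on day 3 (-0.28, or -0.15 scaled), also without overlap. The adaptors that bring substrates to the complex were nearer to no change: RIOK1 at -0.17, CLNS1A at -0.12 and COPRS at -0.11 as deposited, and -0.041, 0.0083 and 0.014 after scaling, where CLNS1A and COPRS changed sign. In the list of the complex, 0 of 5 genes passed. Among 9 other arginine methyltransferase genes tested, 0 passed, with a median of -0.14; PRMT1, the main enzyme of asymmetric dimethylation, was at 412 and 458 FPKM on day 0 and 364 and 317 on day 3 (-0.35) and CARM1 at 21.9 and 22.2 FPKM on day 0 and 21.04 and 14.6 on day 3. PRMT7 was at 16.4 and 15.7 FPKM on day 0 and 14.7 and 11.7 on day 3.

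Gene lists were read by their counts and medians beside those of all genes tested. The 37 lists with a gene tested held between 3 and 345 of them, and 4 lists held 1 gene that passed: TXNDC5 in the unfolded protein response, SCARNA16 among Cajal body RNAs, MRPL42 among mitochondrial ribosomal proteins and ZNF106 among zinc finger genes. The other 33 lists held none. Since only 0.145% of all genes tested passed, a list without a call does not show that its genes did not respond. On FPKM as deposited 32 lists had a median below 0 and 5 above it, beside -0.12 for all genes. After scaling 22 were below and 15 above, and 29 of the 37 lay within 0.1 of 0.

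**Figure D4:**
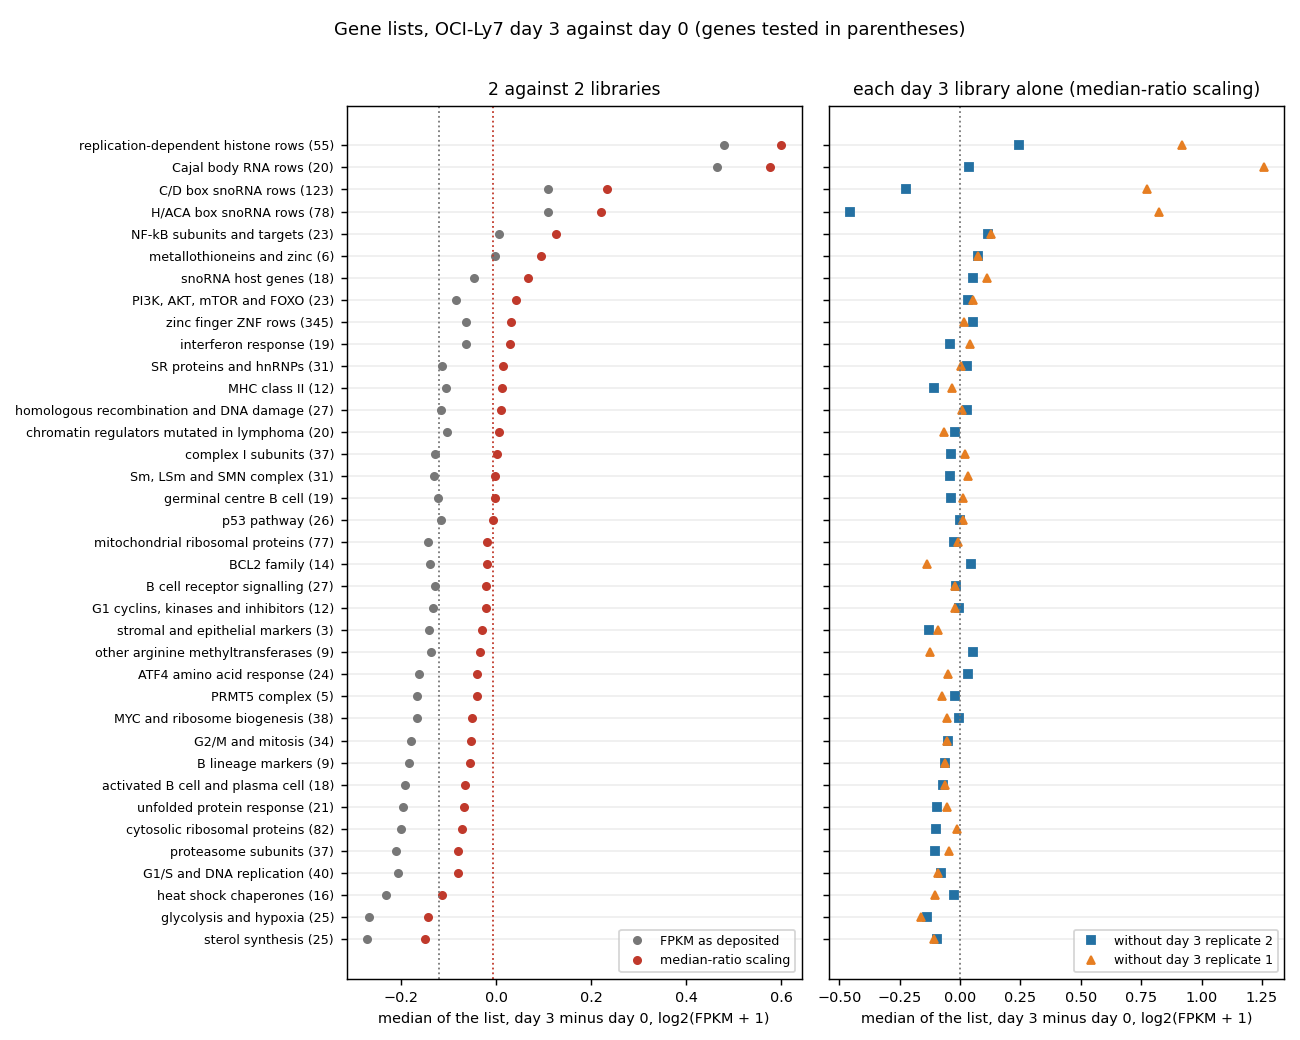
Median change of each gene list, day 3 minus day 0 in OCI-Ly7, on the log2(FPKM + 1) scale, with the genes tested in parentheses. On the left, dotted lines mark the medians of all genes, -0.12 as deposited and -0.0077 scaled; on the right each day 3 library is taken alone. Histone, Cajal body and snoRNA rows stand to the right on the left panel and split between the 2 day 3 libraries on the right panel; sterol and glycolysis genes stand lowest.

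Splicing genes, whose products include the best known substrates of PRMT5, had medians close to that of all genes. Of 31 Sm, LSm and SMN complex genes tested 0 passed, with a median of -0.13. The largest change of the list was that of LSM4 (-2.55), which passed only where day 6 or a day 6 library was left out. SNRPB, a core Sm protein, was at 469 and 463 FPKM on day 0 and 404 and 330.4 on day 3 (-0.35, or -0.22 scaled). GEMIN4, of the SMN complex that loads Sm rings, was at 18.3 and 20.02 FPKM on day 0 and 15.9 and 13.6 on day 3 (-0.36), and LSM10, of the U7 particle that processes histone messages, at 34.6 and 34.8 FPKM on day 0 and 29.3 and 26.7 on day 3. Of 31 SR protein and hnRNP genes 0 passed, with a median of -0.12. HNRNPL, a repressor of exon inclusion, had the largest change of that list (-0.70, limma adjusted p = 0.618) at 329 and 330.4 FPKM on day 0 and 155 and 265 on day 3, and its 2 day 3 libraries were far apart. SRSF1, the prototype SR protein, was at 34.6 and 35.4 FPKM on day 0 and 35.98 and 64.9 on day 3. HNRNPA0 (-0.25) and HNRNPF (-0.24) were slightly lower in both day 3 libraries.

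Cell cycle and growth genes showed no call. Of 40 G1/S and DNA replication genes 0 passed, with a median of -0.21 (-0.08 scaled). Both day 3 libraries lay below day 0 in 27 of them (67.5%, beside 41.1% of all genes), and in 20 (50%, beside 19.6%) after scaling. The helicase subunits MCM2, MCM5 and MCM7 changed by -0.40, -0.42 and -0.41, with MCM7 at 224 and 236 FPKM on day 0 and 187 and 160.5 on day 3. POLD1, the catalytic subunit of a replicative polymerase, was at 37.3 and 35.8 FPKM on day 0 and 33.2 and 21.4 on day 3. Of 34 G2/M genes 0 passed, with a median of -0.18 (-0.05 scaled). The mitotic cyclin CCNB2 was at 86.7 and 99.7 FPKM on day 0 and 73.3 and 65.5 on day 3 (-0.42), and DLGAP5, PLK1 and HMMR, genes of the mitotic spindle, changed by -0.40, -0.39 and -0.37.

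CDKN2A, which encodes the p16 inhibitor of CDK4 and CDK6 and the p53 activator ARF, had the largest change among 12 genes of G1 control. It stood at 7.76 and 8.95 FPKM on day 0, 20.2 and 17.2 on day 3, and 31.5 and 21.3 on day 6, 1.08 on the log2 scale (SE 0.20, limma adjusted p = 0.618). The day 3 libraries were 2.24-fold above day 0 without overlap, and the adjusted test did not pass. CDK4 was at 147 and 155 FPKM on day 0 and 129 and 116 on day 3, CDKN2C at 67.9 and 68.5 FPKM on day 0 and 65.5 and 53.1 on day 3 and CCND3, the cyclin of CDK4 and CDK6 in B cells, at 9.64 and 8.66 FPKM on day 0 and 7.46 and 7.38 on day 3. CCND1 and CCND2 stayed under 1 FPKM in all 6 libraries and were not tested. CDKN1A, the p21 inhibitor and a p53 target, was at 4.94 and 4.58 FPKM on day 0 and 4.59 and 4.03 on day 3 (-0.12), and MDM4, a p53 inhibitor whose splicing is known to depend on PRMT5, at 8.75 and 6.92 FPKM on day 0 and 7.17 and 6.78 on day 3 (-0.14). E2F1, a transcription factor that PRMT5 methylates, was at 44.6 and 42.8 FPKM on day 0 and 43.8 and 33.8 on day 3. Of 26 p53 pathway genes 0 passed, with a median of -0.12, among them BTG2 (-0.28), TP53INP1 (-0.15), PMAIP1 (0.14) and ZMAT3 (0.037).

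MYC, the growth regulator, was at 117 and 115 FPKM on day 0 and 107 and 89.6 on day 3 (-0.24, -0.12 scaled, limma adjusted p = 0.618). Its partner MAX changed by -0.22 and the MYC target ODC1, of polyamine synthesis, by -0.26. NHP2, of the H/ACA particle, changed by -0.27. In the list of MYC and ribosome biogenesis genes 0 of 38 passed, with a median of -0.17 (-0.05 scaled). Of 82 cytosolic ribosomal protein genes 0 passed, although 70 (85.4%, beside 41.1% of all genes) had both day 3 libraries below day 0 as deposited and 28 (34.1%, beside 19.6%) did after scaling. Their levels were among the highest, with RPS16 at 2952 and 3163 FPKM on day 0 and 2476 and 2308 on day 3. RPSA and RPLP0 changed by -0.40 and -0.38.

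No gene of the B cell programme passed. CD79B, 1 of the 2 signalling chains of the B cell receptor, was at 604 and 749 FPKM on day 0, 462 and 422 on day 3, and 596 and 555 on day 6 (-0.61, SE 0.13, limma adjusted p = 0.618). The other chain, CD79A, was at 292 and 351 FPKM on day 0 and 251 and 219 on day 3 (-0.45). In both genes the day 3 libraries lay below day 0 under both scalings and the day 6 libraries were higher than day 3. The kinases BTK and SYK changed by -0.29 and -0.26, the phosphatase PTPN6 by -0.27 and the adaptor BLNK by -0.18. Of 27 B cell receptor genes 0 passed, with a median of -0.13. BCL6, the germinal centre repressor, was at 45.4 and 41.9 FPKM on day 0 and 49.3 and 42.5 on day 3. IRF4 was at 77.2 and 82.6 FPKM on day 0 and 88.9 and 79.1 on day 3 and PRDM1, which drives plasma cell fate, at 2.47 and 2.93 FPKM on day 0 and 2.86 and 2.63 on day 3; in these 3 genes the groups overlapped as deposited. After scaling both day 3 libraries of BCL6 (0.19), IRF4 (0.20) and PRDM1 (0.11) lay above day 0, as in 19.6% of all genes, and none passed. POU2AF1, a B cell coactivator, changed by -0.33 and GCSAM, a germinal centre signalling protein, by -0.26. Among activated B cell and plasma cell genes PIM1 (0.94) was higher, at 40.2 and 44.7 FPKM on day 0, 92.1 and 73.1 on day 3, and 80.3 and 16.3 on day 6, and MZB1 (-0.41), DERL3 (-0.39) and CD27 (-0.39) were lower; 0 of 18 passed.

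NF-kB genes had the highest median of the lists that hold neither histone nor small RNA rows, 0.01 as deposited and 0.13 after scaling. None of 23 passed; both day 3 libraries lay above day 0 in 4 (17.4%, beside 4.58%) and in 9 after scaling (39.1%, beside 19.6%). BCL2A1, a survival gene under NF-kB control, was at 85.7 and 82.4 FPKM on day 0 and 104 and 105 on day 3 (0.31), CD44 at 17.4 and 19.1 FPKM on day 0 and 21.9 and 20.2 on day 3 and the chemokine CCL22 at 0.734 and 0.597 FPKM on day 0 and 1.34 and 1.05 on day 3. SOD2 was lower (-0.22). EBI3, a cytokine subunit, was at 7.52 and 8.64 FPKM on day 0 and 10.2 and 8.305 on day 3. In the BCL2 family 0 of 14 passed: BCL2 was at 192 and 183 FPKM on day 0 and 191 and 169 on day 3 (-0.065, with the other sign, 0.064, after scaling). The BH3 genes BID and BCL2L11 changed by -0.63 and -0.16 and the effector BAK1 by -0.30. MCL1 was at 5.14 and 44.5 FPKM on day 0 and 40.99 and 7.08 on day 3, with replicates of both days several fold apart.

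Sterol synthesis and glycolysis genes had the lowest medians of the lists. The sterol list had a median of -0.27 (-0.15 scaled) over 25 genes and 0 calls, with 16 (64%, beside 41.1% of all genes) lower without overlap as deposited and 12 (48%, beside 19.6%) after scaling. LSS, an enzyme of the cholesterol pathway, was at 1.52 and 1.94 FPKM on day 0 and 0.903 and 1.14 on day 3. ACAT2 changed by -0.38. SREBF2, the transcription factor of the pathway, went the other way, at 9.32 and 10.9 FPKM on day 0, 15.2 and 13.1 on day 3, and 7.54 and 6.39 on day 6 (0.45, limma adjusted p = 0.618). Glycolysis and hypoxia genes had a median of -0.27 (-0.14 scaled) over 25 genes and 0 calls, with PGK1 at 316 and 395 FPKM on day 0 and 258 and 259 on day 3. ENO1, PKM and ALDOA changed by -0.44, -0.43 and -0.39. Of 37 proteasome genes 30 (81.1%, beside 41.1%) were lower without overlap and 22 (59.5%, beside 19.6%) after scaling, with 0 calls and a median of -0.21 (-0.08 scaled). PSMA5 was at 74.8 and 78.9 FPKM on day 0 and 63.2 and 45.98 on day 3. The immune subunit PSMB8 was at 1.48 and 0 FPKM on day 0 and 3.597 and 2.12 on day 3, and PSMB9 and PSMB10 changed by -0.66 and -0.42.

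Besides TXNDC5, the 21 unfolded protein response genes held no call, with a median of -0.20. PDIA6 and CALR, a folding enzyme and a chaperone of the same compartment, were at 95.5 and 118 FPKM on day 0 and 75.05 and 75.8 on day 3, and at 281 and 349 FPKM on day 0 and 245 and 238 on day 3. HSPA5 changed by -0.25. Of 16 heat shock chaperones 0 passed, with a median of -0.23: HSPA8 was at 504 and 641 FPKM on day 0, 429 and 427 on day 3, and 216 and 197 on day 6, and HSF1, HSP90AB1 and TRAP1 changed by -0.33, -0.28 and -0.25. Of 24 genes of the ATF4 amino acid response 0 passed; PHGDH and PSAT1, of serine synthesis, changed by -0.35 and -0.11, the latter with the other sign (0.014) after scaling. SLC3A2, SHMT2 and DDIT4 changed by -0.35, -0.30 and -0.37. MT2A, a zinc-binding metallothionein, was at 32.5 and 32.5 FPKM on day 0, 47.8 and 38.9997 on day 3, and 111 and 95.1 on day 6 (0.40, limma adjusted p = 0.618), and MTF1, which controls such genes, changed by 0.10.

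The remaining protein-coding lists likewise held no further call. Besides MRPL42 and MRPS27, MRPS14 (12.2 and 5.86 FPKM on day 0 and 12.4 and 12.9 on day 3) and MRPS18A (-0.32) had the largest changes without overlap among 77 mitochondrial ribosomal protein genes. Of 37 complex I genes NDUFB6 was at 50.1 and 48.9 FPKM on day 0 and 70.8 and 72.9 on day 3, and NDUFA13, NDUFS8 and NDUFV3 changed by -0.39, -0.38 and -0.34. Of 12 MHC class II genes HLA-DPA1 was at 5.51 and 5.63 FPKM on day 0 and 3.296 and 0 on day 3 and RFXANK changed by -0.30. Of 19 interferon response genes, BST2, IRF1 and IFI35 changed by -0.40, -0.27 and -0.23, and MX1 by 0.21. CHEK2, RUVBL1, KAT5 and FANCD2, of DNA repair, changed by -0.30, -0.30, -0.28 and -0.21. SMARCB1 and SMARCA4, of the SWI/SNF complex, changed by -0.34 and -0.29, and DNMT1, which maintains DNA methylation, by -0.30. FOXO4 changed by -0.21. PECAM1, 1 of the 3 stromal and epithelial markers that reached 1 FPKM, changed by -0.28. Besides ZNF106, ZNF224 (0.88, limma adjusted p = 0.56), ZNF276 (0.89) and ZNF497 (0.67) led the 345 zinc finger genes among those without overlap.

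Histone messages, Cajal body RNAs and small nucleolar RNAs had the highest medians, and these were higher in the second day 3 library than in the first. Messages of replication-dependent histones end in a stem-loop in place of a poly(A) tail. The stem-loop of HIST2H2BF is shown as the feature that sets these messages apart, as a 26-base site from GENCODE v29 with the 16 bases that match the pattern GGNNCTTTTNANNNCC on the transcript strand in capitals.
HIST2H2BF: ccaaaGGCTCTTTTCAGAGCCacttc
This pattern was found in transcripts of 23 of the 55 histone genes tested (41.8%) and of 62 of 10706 other genes (0.579%). Only this fixed pattern was sought, in transcripts as annotated, so a gene without a match may still carry a stem-loop. The median change was 0.43 in histone genes with the pattern and 0.50 in those without it. Over the 55 histone genes the median was 0.48 (0.60 scaled) with 0 calls; both day 3 libraries lay above day 0 in 31 (56.4%, beside 4.58% of all genes) and in 36 after scaling (65.5%, beside 19.6%). HIST2H2BF was at 7.51 and 7.44 FPKM on day 0, 11.03 and 17.7 on day 3, and 8.06 and 13.01 on day 6. HIST1H1D was at 16.3 and 12.7 FPKM on day 0 and 21.7 and 33.7 on day 3, HIST1H4D at 20.1 and 21.1 FPKM on day 0 and 28.5 and 49.6 on day 3 and HIST1H3B at 33.3 and 25.6 FPKM on day 0 and 47.7 and 55.5 on day 3. In all 4 the second day 3 library was the higher one. The median of the list was 0.20 without that library and 0.72 without the first day 3 library, beside -0.041 and -0.19 for all genes. In TMD8 the day 3 medians were 1.21 for histone rows and 1.24 for Cajal body RNAs, beside -0.26 for all genes. Those of H/ACA and C/D box snoRNA rows in TMD8 were 0.75 and 0.24.

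The second day 3 library was also the higher one for other RNAs without a poly(A) tail. The RNA of RNase MRP, RMRP, stood at 2524 and 2181 FPKM on day 0 and at 2659 and 4263 on day 3. The RNA of RNase P, RPPH1, stood at 569 and 567 FPKM on day 0 and at 487 and 1227 on day 3. Their second day 3 values were thus the high ones, as for the 45S row. On day 6 the second library was likewise the higher one, with RMRP at 2491 and 3840 FPKM and RPPH1 at 488 and 833. The part of this library difference in the histone and small RNA results was not tested. Of 20 Cajal body RNAs tested only SCARNA16 passed, and the median of 0.46 fell to 0.01 without the second day 3 library. SCARNA22 was at 11.3 and 11.4 FPKM on day 0 and 14.3 and 34.6 on day 3. The 123 C/D box and 78 H/ACA box snoRNA rows held 0 calls and each had a median of 0.11; without the second day 3 library the medians were -0.26 and -0.50, and without the first 0.60 and 0.63. SNORD116-27 was at 0.7997 and 0.606 FPKM on day 0 and 3.15 and 4.43 on day 3. SNORD116-4, of the same repeat family, was at 1.91 and 3.44 FPKM on day 0 and 0.761 and 0.221 on day 3, and near-identical copies make both uncertain. SNORA46 was at 3.898 and 5.14 FPKM on day 0 and 0.612 and 1.84 on day 3 (-1.36) and SNORA5C at 2.19 and 2.62 FPKM on day 0 and 0.579 and 1.41 on day 3, both lower in each day 3 library. SNORD38B, SNORD19B, SNORA36B and SNORA71B changed by 1.15, 1.05, 1.26 and 0.83. Of 18 snoRNA host genes 0 passed; SNHG4 was at 3.75 and 4.81 FPKM on day 0 and 2.93 and 2.06 on day 3, and SNHG21 and SNHG15 changed by 0.25 and -0.18.

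The same guide in TMD8 gave a test of what differed between the lines on day 3. The tables of the lines were normalized separately, so changes were compared and not levels. The difference of the changes, OCI-Ly7 minus TMD8, passed for 10 of 9688 genes with a mean of at least 1 FPKM in both lines (0.103%). It was above 0 for 4 (0.0413%) and below 0 for 6 (0.0619%). After scaling 9 passed (0.0929%), 8 of them shared. The other one, POU2AF1, was at 49.3 and 47.2 FPKM on day 0 and 42.2 and 34.7 on day 3 in OCI-Ly7 and at 2.003 and 1.86 and then 3.43 and 3.097 FPKM in TMD8, and its difference was -0.94 after scaling (limma adjusted p = 0.0135) and -0.86 as deposited (limma adjusted p = 0.19). Of the 16 genes that passed in OCI-Ly7, 14 were tested in both lines and 8 passed for the difference. Among the 8 were ZNF106, JADE1, SCARNA16, TXNDC5, MSL2, PRKAG1 and MRPL42. The same OCI-Ly7 libraries enter both tests, so genes chosen for their change in OCI-Ly7 were favoured in the test of the difference. The count of 8 is therefore not independent support. TXNDC5 in TMD8 was at 37.6 and 34.8 and 29.5 and 27.9 FPKM, a difference between lines of -4.41 (SE 0.19, limma adjusted p = 1.73e-05). For MSL2 TMD8 had 7.83 and 7.34 and then 6.63 and 6.39 FPKM, and the difference was -2.43. These changes in TMD8 lay near the median change there of the genes tested in OCI-Ly7 (-0.26 as deposited). MRPL42, at 23.3 and 23.4 FPKM on day 0 and 20.01 and 17.6 on day 3 in TMD8, differed by -1.15 (limma adjusted p = 0.0065).

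HIGD1A, GPATCH4, NFS1, USF1, SLC25A17 and SLC25A11 did not pass for the difference. HIGD1A in TMD8 was at 52.6 and 17.7 FPKM on day 0 and 54.3 and 48.4 on day 3, and GPATCH4 at 14.3 and 32.7 and 31.99 and 30.4. In both the TMD8 day 0 libraries were more than 2-fold apart, which limits that test. The TMD8 day 0 libraries of NFS1 (20.1 and 11.6 FPKM) and USF1 also differed. These rows thus differed between libraries of 1 day without induction. Close values in 2 OCI-Ly7 libraries may therefore understate their spread. USF1 was at 41.9 and 25.03 FPKM on day 0 and 18.3 and 20.6 on day 3 in TMD8, lower in both day 3 libraries as in OCI-Ly7. SLC25A11, lower in OCI-Ly7, was at 22.1 and 23.1 and 29.01 and 28.02 FPKM in TMD8 and thus higher there on day 3, with a difference of -1.79 (limma adjusted p = 0.227).

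**Figure D5:**
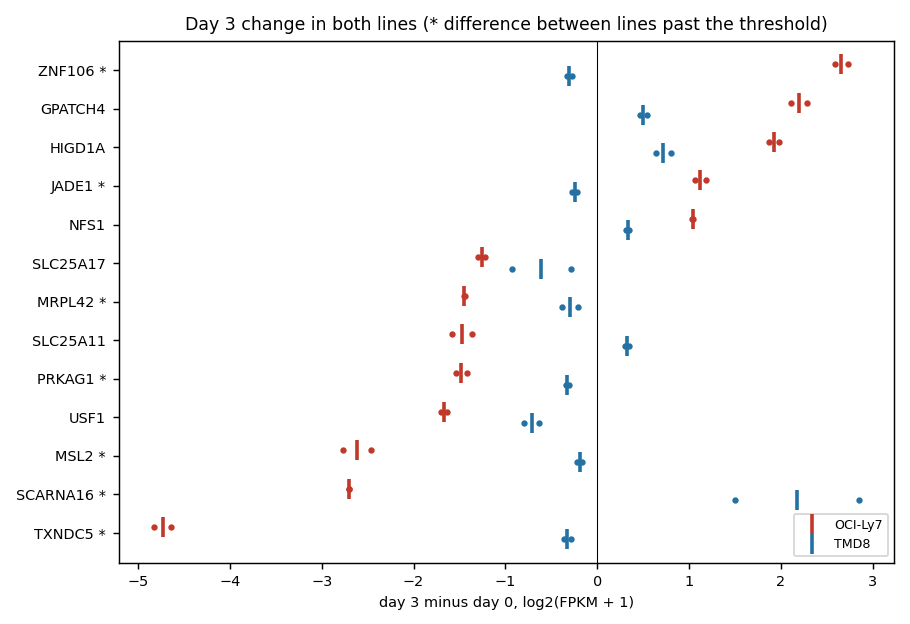
Change from day 0 to day 3 on the log2(FPKM + 1) scale in OCI-Ly7 (red) and TMD8 (blue) for 13 of the 14 genes past the threshold in OCI-Ly7 that were tested in both lines; bars are means and dots each day 3 library minus the day 0 mean. Stars mark 7 genes whose difference between lines passed; TXNDC5 and MSL2 stand far from 0 in OCI-Ly7 and close to 0 in TMD8, and SCARNA16 lies on opposite sides.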

How the data were processed

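RNA sequencing libraries were made from OCI-Ly7 and TMD8 cells with RNeasy Plus extraction and a TruSeq RNA kit, per the labels' protocols. Per the submitters' processing notes, HISAT and StringTie were used with hg19; their versions, the annotation, and the way in which transcripts became 1 row per gene are not given in the sources used here. What the authors deposited is 1 table of FPKM per line, by gene symbol. FPKM is relative to the library, so more fragments in some rows mean lower values in the rest, and an exact 0 can be a failed estimate: of 7296 genes with a mean of at least 5 FPKM, 41 were listed at 0 in 1 to 5 libraries.

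From there, log2(FPKM + 1) was fitted with limma 3.58.1 (R 4.3.3; mean-dependent trend, Benjamini-Hochberg over all genes tested, no replicate block) over the 6 OCI-Ly7 libraries, which share 1 spread, and over all 12 libraries for the difference between lines. The fits were repeated after median-ratio scaling, and scaled changes are given for some of the genes. The 40 lists (662 genes and 10 name patterns), the members and the tests were chosen with earlier results of these data known. The list of mitochondrially encoded genes matched no row, and T and NK and myeloid markers had no gene tested. Named were all genes that passed; the 10 per direction with the largest change at a mean of at least 5 FPKM and no overlap; up to 4 per list by the same rule; up to 5 per direction for the line difference; and a fixed set including PRMT5, MYC and BCL6. A few genes that this rule names, 1 of them among those that passed, are counted but not reported here. The script was tested on simulated data. Deviations of libraries with the same replicate number correlated weakly between days (0.133, -0.08 and 0.109), which cannot exclude a shared batch. The second libraries of days 3 and 6 both had the higher 45S share (27.4% and 27.0%, against 19.1% and 21.5%). On day 0 the second library had the lower share (13.9% against 14.9%). The 45S share was computed from its FPKM and its RefSeq length of 13357 nt. Overlaps and sequences come from GENCODE v29, on another build than hg19, so no coordinates are given. The 28 rows named like dates were kept as they are. Figures used matplotlib 3.10.9.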

Additional observations from a re-analysis of the deposited data

Results flagged for a closer look

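In 8 of the 10 genes that passed for the difference between the lines, the day 3 change is listed here because the change in OCI-Ly7 and the change in TMD8 differed in a test of the difference itself (limma, all 12 libraries, adjusted over 9688 genes, n = 2 libraries per line and day); MRPL42, given in the results above, fell outside the rule for naming. The difference, OCI-Ly7 minus TMD8, was 2.96 for ZNF106, 1.37 for JADE1 and 0.86 for PRPF40B. It was -4.87 for SCARNA16, -4.41 for TXNDC5, -2.43 for MSL2, -1.40 for SNORD21 and -1.16 for PRKAG1.

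PRPF40B, a splicing factor of the U1 particle, and SNORD21, a C/D box small nucleolar RNA, did not pass in OCI-Ly7 itself. PRPF40B was at 1.72 and 1.75 FPKM on day 0 and 2.59 and 2.43 on day 3 in OCI-Ly7 and at 6.56 and 6.3998 and then 4.38 and 4.18 FPKM in TMD8, so it was higher at day 3 in one line and lower in the other. Its difference did not pass after scaling (limma adjusted p = 0.052). SNORD21 was at 11.6 and 11.5 FPKM on day 0 and 10.3 and 9.62 on day 3 in OCI-Ly7 and at 2.89 and 2.88 and then 7.72 and 8.24 FPKM in TMD8; it too did not pass after scaling (limma adjusted p = 0.0639). SCARNA16 was at 2.14 and 3.8004 FPKM at day 0 and 27.1 and 9.95 at day 3 in TMD8, the opposite direction to OCI-Ly7, in rows that overlap SNHG20. ZNF106 was at 9.83 and 8.86 and 7.52 and 7.25 FPKM, JADE1 at 6.9004 and 5.59 and 5.22 and 4.95 and PRKAG1 at 18.02 and 17.4 and 14.1 and 13.8 in TMD8 at days 0 and 3. In these 3 genes the TMD8 changes were between -0.33 and -0.24.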

How the results depend on the processing

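The count of 16 genes lay between 13 and 19 under the other scalings, pseudocount, filters, trend setting and the fit of days 0 and 3 alone, and was 15 under a scaling chosen after seeing the data (an equal FPKM sum without ribosomal, small RNA and histone rows). The labels do not say whether replicate numbers pair the libraries. With a replicate block 13 genes passed, and with a replicate block and median-ratio scaling together 5. Leaving out each library in turn gave 13 to 29 genes, of which 6 to 12 were among the 16; the remaining library of a group was then assumed to vary like the others. Without the first day 0 library 29 passed. HIGD1A, MSL2 and TXNDC5 passed in all 16 alternative fits, and USF1 in 15. JADE1, NFS1, SLC25A17 and ZNRD1 passed in none of the 6 fits that left out a library (largest limma adjusted p 0.181, 0.174, 0.153 and 0.237). The change of PRMT5 was -0.60 to -0.30 without 1 library. TMEM189-UBE2V1, UBE2V1, LSM4 and PPP1R12A passed where day 6 or a day 6 library was left out; CDK2AP1, CHTF8, HLA-DPA1, KIFC1, MRPS27, OVCA2, SCARNA21 and SENP3-EIF4A1 each passed without 1 library of day 0 or day 3. For the difference between lines, 10 genes became 5 with a replicate block and 8 with the block and scaling; leaving out 1 library gave 7 to 32, with 32, 18, 30 and 25 without the OCI-Ly7 libraries of day 0 (first, second) and day 3 (first, second) and 18 without the first TMD8 day 3 library. Among the named genes that did not pass, DDTL did with a replicate block (limma adjusted p = 0.0299).

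Changes that did not pass and turned sign were small apart from MCL1. After median-ratio scaling, with or without the replicate block, BCL2 was 0.064, CLNS1A 0.0083, COPRS 0.0136 and PSAT1 0.0140; with an equal FPKM sum they were 0.067, 0.0111, 0.01643 and 0.01678. Under the scaling chosen after seeing the data, BCL2 was 0.121, CLNS1A 0.065, COPRS 0.069, PSAT1 0.069, BCL2L11 0.025, CDKN1A 0.034, E2F1 0.004236, MDM4 0.024, RIOK1 0.014 and SNHG15 0.0040. Leaving out 1 library in turn gave -0.154 to 0.0236 for BCL2, -0.0381 to 0.173 for BCL6, -0.361 to 0.00408 for E2F1, -0.01234 to 0.153 for IRF4, -1.31 to 1.59 for MCL1, -0.291 to 0.00921 for MDM4 and -0.070 to 0.109 for PRDM1. Median-ratio scaling assumes that most genes did not change. With 2 libraries a day and no stated depth, changes near the spread between replicates were not detectable. Some rows that share exons exchanged values between libraries of 1 day, so changes of such rows are uncertain. The causes of these differences were not tested.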
